A study of Mus musculus with 17 samples.

Results

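The comparison described here asked whether the liver answered the loss of Afp differently in adult mice and in embryos. It used 12 of the 17 arrays of the series: 6 arrays of 6 adult mutant males and 6 arrays of 6 mutant embryos, each hybridised with the mutant in the dye Cy5 and a wild-type pool in Cy3. Adults were 17 weeks old, and their pool held RNA of 6 wild-type males. The embryos were 3 males and 3 females, and their pool names 4 animals, which the labels call male on 2 arrays and female on 4. The labels give embryonic day 7.5 for the embryos and for their pool; the mouse liver bud forms later than that day in standard descriptions, so this age is only a label here. The mutation is called a knockout of Afp (AFP1 kO in the labels); neither strain nor allele design nor breeding is stated. The remaining 5 arrays repeated 5 of the adults with the dyes exchanged and served as a check. Age, pool and, in part, sex differ together between the groups, so an age effect and a pool effect cannot be told apart. No wild-type animal was measured alone.

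Afp encodes alpha-fetoprotein, a serum carrier protein that the yolk sac and fetal liver secrete in large amounts and that the liver largely ceases to make after birth. Alb, Afp and Afm stand next to each other in the same gene cluster and encode secreted proteins of the albumin family. Fetal liver is also a blood-forming organ, whereas adult liver is dominated by hepatocytes that secrete plasma proteins and carry out amino acid, lipid and drug metabolism.

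Each value is a log2 ratio of mutant over pool, and each difference is the mean of the adults minus the mean of the embryos. Adult values, and statements that adults lay above or below the pool, refer to the arrays with the mutant in Cy5 unless Cy3 is named. A positive difference means that the ratio was higher in adults, whichever side of 0 it lay on. Ratios carry no expression level, so the tissue could not be checked against its markers. Between 20078 and 20697 of 20794 probes had a value per array. With the mutant in Cy5, the interquartile range of the values was 0.41 log2 units in adult 1, 0.74 to 0.91 in the other adults and 0.27 to 0.53 in the embryos. With the mutant in Cy3 it was 0.80 in adult 1 and 0.66 to 0.90 in the other adults. The narrow range of adult 1 was thus seen on 1 of its 2 arrays. Fetal values were read 11 rows below their probe number, since probes of the same gene agreed best at that offset (Spearman correlation 0.0887 across 121 offsets tried). In bulk tissue, fewer cells of a type and less RNA per cell cannot be told apart.

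The targeted gene separated the ages completely. In the embryos Afp lay at -8.79, -8.36 and -8.11 (lowest, median and highest of 6), and in the adults at -0.34, -0.16 and 0.34. Every embryo was thus far below the pool, and every adult was close to it. The difference was 8.29 (95% interval 7.96 to 8.62), with limma's adjusted p = 1.45e-12 and n = 6 per age. The 3 Afp probes gave differences of 8.67, 8.66 and 7.54. The first 2 of them read the same value in embryo 1, in embryo 4 and in embryo 5, so the size may be a bound set by the lowest readable signal. In adults a ratio near 0 compares 2 tissues in which the gene is normally almost silent, and it does not show that the mutant transcript is present.

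Afm, which encodes the vitamin E-binding serum protein afamin and lies next to Afp, moved in the opposite direction. Its ratio was 0.63, 0.80 and 1.08 (lowest, median, highest) in the embryos and -0.98, -0.37 and 0.31 in the adults. All embryos stood above all adults, and adult 1 was the only adult above 0 in this dye orientation. The difference was -1.19 (95% interval -1.61 to -0.77, limma adjusted p = 0.0323), and it passed in 2 of the 12 fits that left out 1 animal. With the adult means taken over both dye orientations (adult 5 in Cy5 alone) it was -0.99 and passed (adjusted p = 0.0166).

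Alb, which encodes albumin, the main serum protein of the adult, showed wide spread. The adults ran from -1.29 over a median of -0.25 to 0.35, and the embryos from 0.03 over 0.23 to 0.59. Adults 3, 4, 5 and 6 lay below every embryo, while adults 1 and 2 lay among them. The difference of -0.66 (95% interval -1.21 to -0.10) did not pass (adjusted p = 0.180). Gc, the vitamin D-binding member of the family, was not analysed here.

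The promoters of these 3 genes are shown because the genes are adjacent, share ancestry and had unlike ratios. Afp, the targeted gene itself, fell far below the pool in embryos alone, and the age difference of Afm and Alb was negative. Promoter activity was not tested. The 250 bases before each start were taken from RefSeq's mouse assembly GRCm38.p6, plus strand. They are chr5:90460620-90460869 for Alb, chr5:90490464-90490713 for Afp and chr5:90518699-90518948 for Afm. Capitals mark, on either strand, TATAAA (the TATA box), CCAAT (the CCAAT box) and GTTAAT (the core of sites bound by the hepatocyte factor HNF1).
Alb: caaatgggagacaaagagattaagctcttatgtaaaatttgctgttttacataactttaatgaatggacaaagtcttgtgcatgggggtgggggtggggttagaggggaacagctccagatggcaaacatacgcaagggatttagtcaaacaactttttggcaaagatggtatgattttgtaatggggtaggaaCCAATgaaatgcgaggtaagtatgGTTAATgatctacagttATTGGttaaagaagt
Afp: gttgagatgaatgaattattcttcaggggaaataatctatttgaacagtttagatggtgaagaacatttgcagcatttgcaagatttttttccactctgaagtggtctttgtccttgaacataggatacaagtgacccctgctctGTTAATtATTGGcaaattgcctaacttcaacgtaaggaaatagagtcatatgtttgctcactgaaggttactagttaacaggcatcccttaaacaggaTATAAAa
Afm: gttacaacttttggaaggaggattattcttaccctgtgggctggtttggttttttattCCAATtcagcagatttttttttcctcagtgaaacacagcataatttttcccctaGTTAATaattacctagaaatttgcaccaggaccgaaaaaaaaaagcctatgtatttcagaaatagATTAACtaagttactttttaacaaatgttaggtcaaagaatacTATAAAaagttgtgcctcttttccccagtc

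GTTAAT occurred once each before Alb and Afp and at 2 places before Afm. Of all 32851 windows of this length in the table, 6.43% held GTTAAT, 33.8% CCAAT and 12.4% TATAAA. The windows of Afp and Afm held TATAAA, beginning 7 and 30 bases before the annotated start, and that of Alb did not. These are matches of letters, not measured sites, and no binding was assayed. Only exact letters were sought, in windows set by the annotated starts. The missing match before Alb therefore does not show that its promoter lacks such a box.

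Across the array, 23 of 16314 features (a gene, or a probe without a gene symbol) passed an adjusted p of 0.05 in limma: 15 were higher in adults, which is 0.0919% of those tested, and 8 were lower, 0.0490%. Of the 23, 13 were named genes. In all 23 the adults and the embryos did not overlap (22 had a value in all 12 animals, and probe 11048 had none in adult 2); over all features this held for 186 with adults higher (1.14%) and 188 with adults lower (1.15%). An unadjusted p under 0.05 was reached by 1787 features with adults higher (11%) and 1507 with adults lower (9.24%). Single features varied more between adults (median SD 0.41) than between embryos (0.25). The 12 passing named genes other than Afp passed in 2 to 6 of the 12 fits that left out 1 animal, Hes7 and Cnp in 6. Labels do not say whether littermates were used, so the p-values measure the spread among these animals.

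**Figure D1:**
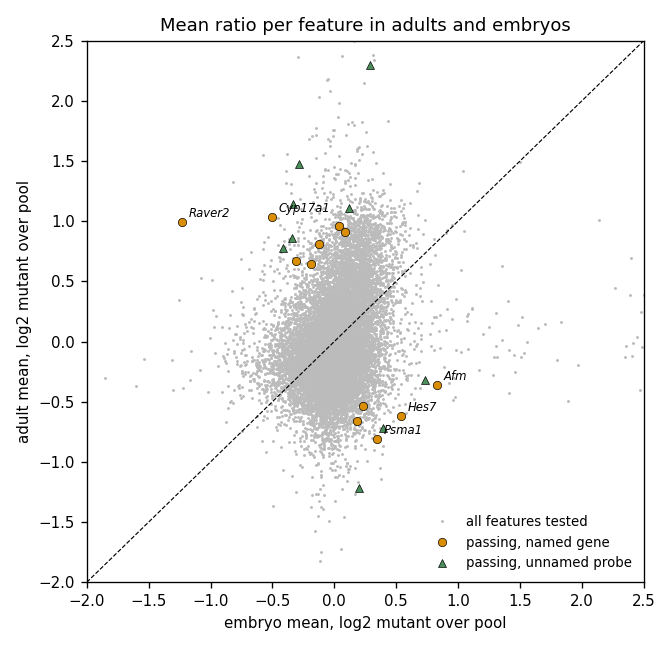
Mean log2 ratio of mutant over pool in 6 embryos (horizontal axis) and 6 adults (vertical axis) for each feature tested; the dashed line marks equal ratios, and filled symbols are the features that passed. Afp, with means of -8.40 and -0.11, and probe 19614, at -5.62 and -0.20, lie outside the axes, as do features with extreme single values.

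The genes with the higher ratio in adults were, besides Afp, a mixed group of 7. With the mutant in Cy3, 7 of the 7 averaged below 0 in adults: Raver2 at -1.23, Bzw2 at -0.79, Cyp17a1 at -0.53, Mybpc2 at -0.42, Sfxn2 at -0.35, Iffo1 at -0.22 and Luzp1 at -0.05. Cyp17a1, the steroid 17-alpha-hydroxylase, had ratios of 0.15, 1.2 and 1.36 (lowest, median, highest) in adults against -0.96, -0.56 and 0.00 in embryos. Its lowest adult was adult 1, and the other adults all exceeded 1. The difference was 1.53 (95% interval 1.06 to 2.00, limma adjusted p = 0.019), with n = 6 per age.

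Raver2, an RNA-binding partner of the splicing regulator PTB, showed the largest difference among the passing named genes after Afp, 2.23 (95% interval 1.49 to 2.96, adjusted p = 0.0248). Adults ran from 0.33 over a median of 1.08 to 1.69, and embryos from -2.75 over -1.05 to -0.62. Embryo 6 lay far below the other embryos. Bzw2, a regulator of translation initiation, was at 0.78, 0.91 and 1.2 in adults and at -0.18, -0.03 and 0.41 in embryos. It was close to the pool in embryos and above it in every adult, a difference of 0.92 (adjusted p = 0.0226).

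Sfxn2, a mitochondrial inner-membrane transporter, was above the pool in every adult with the mutant in Cy5 (0.28, 0.74, 0.99) and below it in every embryo (-0.62, -0.33, -0.05), a difference of 0.98 (adjusted p = 0.0275). Luzp1, a leucine zipper protein, had the same arrangement, with adults at 0.26, 0.70 and 0.82, embryos at -0.40, -0.14 and -0.07 and a difference of 0.83 (adjusted p = 0.0248). Mybpc2, the fast-muscle myosin-binding protein C, reached 0.52, 0.73 and 1.27 in adults against -0.52, -0.06 and 0.03 in embryos, a difference of 0.93 (adjusted p = 0.0347). Sfxn2 and Luzp1 thus moved to opposite sides of 0, whereas 5 of the 6 embryos lay between -0.11 and 0.03 for Mybpc2. Iffo1, an intermediate filament family protein, had the narrowest adult spread of these genes (0.78, 0.91, 1.05), with embryos at -0.25, 0.04 and 0.57 and a difference of 0.83 (adjusted p = 0.0481).

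Among the 5 named genes that passed with adults lower, the age groups lay on opposite sides of 0 for most animals. Hes7, a transcriptional repressor of the Notch pathway, was at -0.92, -0.68 and -0.18 in adults and at 0.06, 0.58 and 0.85 in embryos. All adults were below the pool and all embryos above it, a difference of -1.16 (95% interval -1.51 to -0.81, limma adjusted p = 0.019). Psma1, a subunit of the 20S proteasome, read -1.18, -0.81 and -0.16 in adults and 0.11, 0.32 and 0.66 in embryos. Its split was as clean, with a difference of -1.15 (adjusted p = 0.0248), and adult 1 stood nearest to 0.

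Cnp, a myelin-associated phosphodiesterase, was the tightest of the group. Adults ran from -0.90 over -0.61 to -0.52 and embryos from -0.02 over 0.19 to 0.39, a difference of -0.84 (adjusted p = 0.019). Ptbp3, an RNA-binding splicing regulator known from blood-forming cells, ran from -0.79 over -0.58 to -0.28 in adults and from -0.10 over 0.28 to 0.40 in embryos, a difference of -0.77 (adjusted p = 0.0422). In both genes the adults with the mutant in Cy5 lay below the pool and most embryos slightly above it. With the mutant in Cy3 the adults averaged 0.22 for Cnp, -0.22 for Ptbp3, -0.25 for Hes7, -0.40 for Psma1 and 0.09 for Afm.

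**Figure D2:**
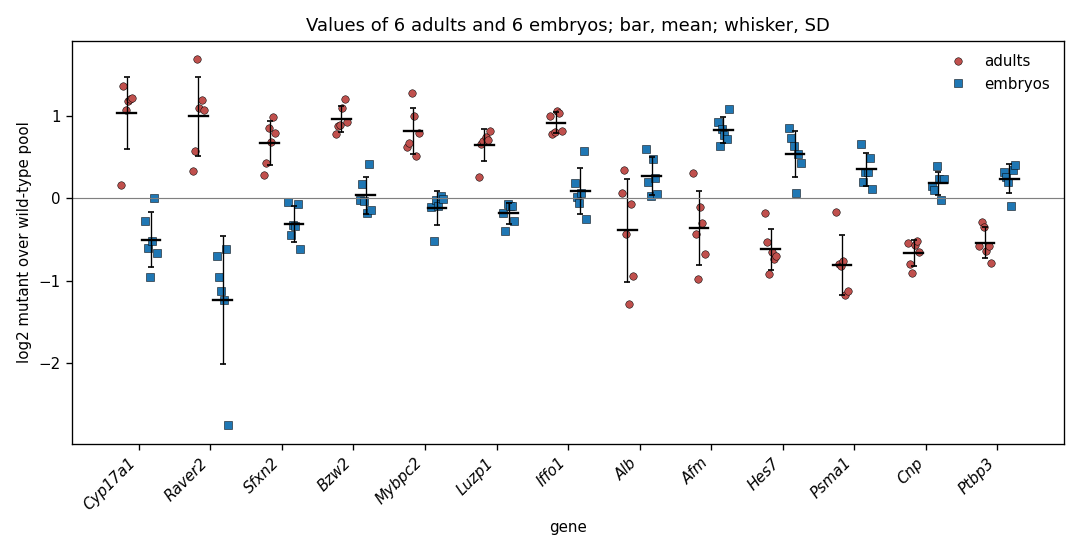
Log2 ratio of mutant over pool in each of 6 adults (circles) and 6 embryos (squares) for the passing named genes other than Afp, and for Alb; the bar is the mean and the whisker the SD. The ages do not overlap in any gene but Alb, which did not pass.

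The 10 passing features without a gene symbol held 3 of the 4 features, with Afp, that passed in all 12 fits leaving out 1 animal. Probe 19614 lay at -6.59, -5.45 and -5.22 in embryos and at -0.90, -0.10 and 0.10 in adults, a difference of 5.42 (adjusted p = 6.56e-08). It was the only feature besides Afp that passed with a difference over 5. Probe 19613, numbered between it and an Afp probe, had a fetal mean of 0.19, and positions on the slide are not given. Probe 7623 was at 0.59, 0.72 and 0.89 in embryos and at -0.66, -0.29 and -0.10 in adults, a difference of -1.06 (adjusted p = 0.00501). Probe 4463 was at 1.84, 2.19 and 2.90 in adults and at -0.04, 0.24 and 0.63 in embryos, a difference of 2.01 (adjusted p = 0.000477). Among the rest, probe 11048 (1.76, adjusted p = 0.019) and probe 5357 (1.48, adjusted p = 0.0248) were higher in adults.

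Dye orientation moved with many of these differences. In the 5 adults measured both ways, Bzw2 averaged -0.79 and probe 4463 averaged -1.62 with the mutant in Cy3, against 0.91 and 2.18 with the mutant in Cy5. The authors' direction of the Cy3 arrays is not stated and was taken as mutant over pool, because probe values beyond 10 in size were all positive on the arrays with the mutant in Cy5 (445) and all negative on those with it in Cy3 (140). Read the other way, with the Cy3 arrays turned in sign, 239 features passed. A dye profile was formed as the difference of an animal's arrays of opposite orientation divided by 2.

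The arrays carried this profile unequally. The slope on it was 0.49 in adult 1, 0.93 to 1.06 in the other adults and 0.04 (embryo 6) to 0.57 (embryo 5) in the embryos. The profile was formed from adults 1, 2, 3, 4 and 6, so their slopes were partly fixed in advance. Adult 5, at 1.01, and the embryos had no part in it. The profile rests on the inferred direction of the Cy3 arrays, and the part of dye in the age differences was not tested. Adult 5 had no Cy3 array. Wherever adults were averaged over both orientations, adult 5 kept its Cy5 values alone, with a slope of 1.01 on the profile. With the profile subtracted from each fetal array by its own slope and the adult mean taken over both orientations, 5 features passed: Afp (8.35), probe 19614 (5.51), probe 7623 (-0.93), Afm (-1.05) and Rgn (-1.12). Bzw2 then stood at 0.42 (adjusted p = 0.366), Iffo1 at 0.50, Cnp at -0.58 and probe 4463 at 0.89, and none of these passed. Among the passing named genes, differences over 1 in size also stood in Raver2 (1.59), Cyp17a1 (1.08), Hes7 (-1.06) and Psma1 (-1.06), with adjusted p of 0.0954, 0.0756, 0.062 and 0.0571.

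**Figure D3:**
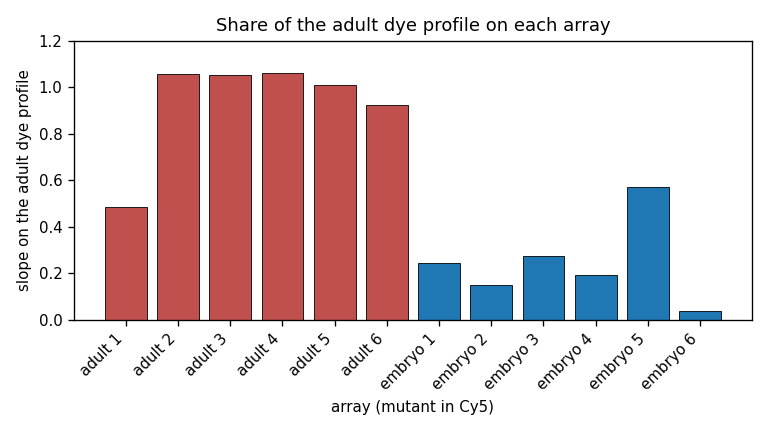
Slope of each array's values on the adult dye profile, for 6 adult (red) and 6 fetal (blue) arrays with the mutant in Cy5. Adult 1, at 0.49, lies closer to embryo 5, at 0.57, than to any other adult. All adults but adult 5 entered the profile, so their slopes were partly fixed in advance.

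Rgn encodes regucalcin, a calcium-binding lactonase abundant in hepatocytes; it is named here after its values were seen. It ran from -1.39 over -0.50 to 0.11 in adults and from 0.34 over 0.49 to 0.86 in embryos, without overlap. With all 12 animals, the mutant in Cy5 and no profile subtracted, its difference was -1.05 (limma adjusted p = 0.0697). With the mutant in Cy3 the adults averaged -0.75, so both orientations placed it below the pool in adults.

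The number of passing features depended on the array of adult 1 with the mutant in Cy5. Without it, 787 of 16136 features were higher in adults (4.88%) and 437 lower (2.71%), and 629 of these 1224 were named genes. The 23 features that passed with all animals were among them. Of the 1224, 1183 had a dye profile value, and in 1114 (94.2%) the difference had the sign of the profile. Among the 23 it was 20 of 22, and over all features the share was 72.1%. The profile was built partly from the same adult values, so some sharing was fixed in advance, and its cause was not tested. Leaving out embryo 5 gave 78 features, and leaving out any other single animal 4 to 18. Of the 1224, adult 1 stood on the same side of the embryo mean as the other adults in 815 of 1219 (66.9%), at a median distance of 0.12, against 0.80 for the others. These features were chosen by the values of the other adults, which raises the 0.80, and adult 1 had no part in the choice. The distances therefore do not compare adult 1 with the others on equal terms.

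With the dye profile subtracted and adult 1 left out, 19 of 15237 features were higher in adults (0.125%) and 60 lower (0.394%). Of these, 50 were named genes, 41 of them lower, and 5 of the 38 plasma protein genes listed passed lower and 0 higher. Apoe, a lipoprotein ligand made mainly in liver, ran from -1.25 over -0.72 to 0.38 in adults and from -0.13 over 0.26 to 0.58 in embryos. With the mutant in Cy5, adult 1 was its highest adult and the only one above 0. With the mutant in Cy3, adult 1 was at -0.387, adult 3 at -0.215 and no adult above 0. Its difference was -0.97 in this fit, and -0.91 (adjusted p = 0.0803) with all animals, the mutant in Cy5 and no profile subtracted.

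Adult 1 was also the highest adult in a further pair of liver genes that passed in that fit, which left it out. Cdo1, which begins cysteine breakdown to taurine, ran from -1.36 over -0.78 to -0.06 in adults and from -0.02 over 0.23 to 0.39 in embryos. Selenop, the selenium carrier secreted by liver, ran from -1.64 over -1.06 to 0.27 and from -0.11 over 0.31 to 0.71. With the mutant in Cy3, adult 1 was again the highest, at 0.98 for Cdo1 and 0.08 for Selenop. Both genes are named after their values were seen. Their differences were -1.06 and -1.31 (adjusted p = 0.0131 and 0.0144). With all animals, the mutant in Cy5 and no profile subtracted, they were -0.89 and -1.23 (0.0723 and 0.0715).

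**Figure D4:**
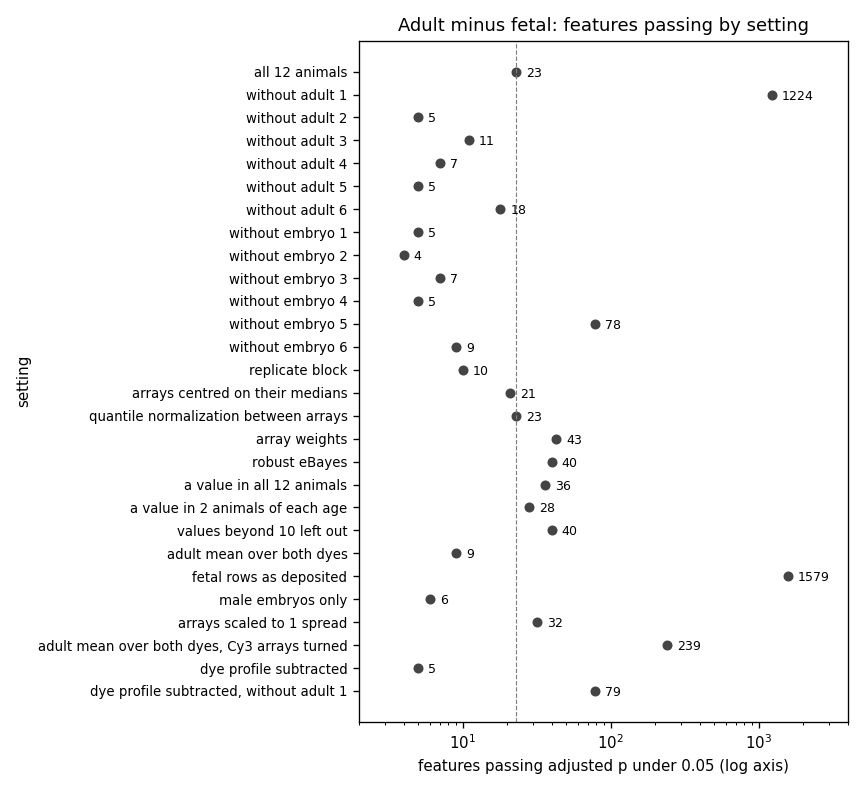
Number of features with an adjusted p under 0.05 for adult minus fetal under each setting, on a log axis; the dashed line marks the 23 features of the fit with all 12 animals. Leaving out adult 1 gives 1224 features and leaving out any other adult 5 to 18.

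Gene lists were read against all features tested, of which 52.3% were lower in adults, with a median difference of -0.02. The lists hold named genes alone, and of all 8567 named genes 55% were lower, with a median of -0.04. At an unadjusted p under 0.05 in limma, 11% of all features were higher in adults and 9.24% lower. Hepatocyte plasma proteins, the secreted carriers, clotting factors and protease inhibitors, were lower in adults for 30 of 38 genes measured, with a median difference of -0.35. None passed with all 12 animals; 12 had an unadjusted p under 0.05 with adults lower and 0 with adults higher. Serpina1e, an alpha-1-antitrypsin, was at -1.17, -0.70 and 0.25 in adults and -0.26, 0.35 and 0.83 in embryos, a difference of -0.99 (adjusted p = 0.0749). Serpinc1, antithrombin, was at -1.26, -0.71 and 0.18 against 0.07, 0.23 and 0.52, a difference of -0.84 (adjusted p = 0.0803). With the mutant in Cy5, both overlapped between ages only through adult 1. With the mutant in Cy3, that animal stood at -0.26 and -0.18, and adult 2 at -0.23 and 0.47.

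The list's median per animal separated the adults among themselves. It was 0.38 in adult 1, 0.11 in adult 2, -0.50 in adult 3, -0.34 in adult 4, -0.25 in adult 5 and -0.42 in adult 6. In the embryos it was 0.07, 0.14, 0.16, 0.45, 0.03 and 0.43. Adults 3 to 6 lay below every embryo and adults 1 and 2 among them. With the mutant in Cy3 the medians were -0.08 and -0.09 in adults 1 and 2 and -0.57, -0.63 and -0.56 in adults 3, 4 and 6, so both orientations put the same 2 animals highest. Taken over both orientations, 35 of 38 genes were lower in adults, with a median of -0.47.

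Lipid synthesis genes were also mostly lower in adults. Of 36 genes of cholesterol and fatty acid synthesis, 28 were lower in adults (median -0.38), 15 with an unadjusted p under 0.05 against 2 higher, and 0 passed. Sc5d, an enzyme of the last steps of cholesterol synthesis, was uniform in embryos at 0.49, 0.57 and 0.64, and ran from -0.54 over -0.20 to 0.30 in adults. The ages did not overlap, and the difference was -0.72 (adjusted p = 0.0697). Fdft1, squalene synthase, ran from -1.12 over -0.68 to -0.13 in adults and from -0.10 over 0.17 to 0.23 in embryos, a difference of -0.72 (adjusted p = 0.0716).

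Amino acid and urea cycle enzymes were lower in adults for 33 of 41 genes (median -0.24), with 12 at an unadjusted p under 0.05 and 2 in the other direction. Hgd, homogentisate dioxygenase of tyrosine breakdown, ran from -1.0 over -0.58 to 0.10 in adults and from 0.32 over 0.49 to 0.64 in embryos (difference -0.96, adjusted p = 0.0607). Asns, asparagine synthetase, had 5 adult values at or below -0.70 and embryos between -0.28 and 0.27 (difference -1.0, adjusted p = 0.0661). Neither gene overlapped between the ages.

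Cytochrome P450 and conjugation genes were lower for 24 of 32 (median -0.32), with 8 and 2 at an unadjusted p under 0.05 with adults lower and higher. The glutathione transferases Gstm3 and Gstm1 had differences of -0.80 and -1.0 (adjusted p = 0.0608 and 0.0623), without overlap. Gstt1, another glutathione transferase, and Cyp2d22, a P450 enzyme, were higher in adults by 0.75 and 0.57 (adjusted p = 0.0781 and 0.0811), and averaged -0.84 and -0.39 in adults with the mutant in Cy3. Fatty acid oxidation genes were lower for 22 of 34 (median -0.19). Scp2, a sterol carrier with a peroxisomal thiolase form, ran from -1.71 to 0.56 in adults, with embryos at 0.14 to 0.35 (difference -0.96, adjusted p = 0.115), and Acads, the short-chain acyl-CoA dehydrogenase, was higher in adults by 0.42 (adjusted p = 0.137). Glucose and glycogen genes were split, with 17 higher and 20 lower; Pck2, mitochondrial phosphoenolpyruvate carboxykinase, stood at 0.71 and Ldhb, a lactate dehydrogenase subunit, at -0.64.

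Cytosolic ribosomal protein, respiratory chain and proteasome genes were mostly lower in adults as well. Of 58 cytosolic ribosomal protein genes, 50 were lower in adults (median -0.29), 19 with an unadjusted p under 0.05 against 0 higher, and 0 passed. Rps7, of the small subunit, ran from -1.32 over -0.65 to 0.30 in adults and from 0.27 over 0.41 to 1.39 in embryos (difference -1.17, adjusted p = 0.0711). Adult 1 was its only adult above 0 with the mutant in Cy5. With the mutant in Cy3, adults 1 and 2 were above 0, at 0.01 and 0.54. Rpl23, of the large subunit, had a difference of -0.63 (adjusted p = 0.0723) without overlap. Mitochondrial ribosomal protein genes were closer to even, with 33 of 57 lower and a median of -0.06; Mrpl36 stood at 0.58 (adjusted p = 0.103).

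Respiratory chain genes were lower for 49 of 62 (median -0.27), 16 with an unadjusted p under 0.05 against 2 higher, and 0 passed. Ndufa10, a subunit of complex I, was higher in adults by 0.53 (adjusted p = 0.0964). Atp5c1, a subunit of ATP synthase, and Uqcrc2, of complex III, had differences of -0.84 and -0.91 (adjusted p = 0.0796 and 0.0924). In both, adult 1 (0.18 and 0.43) was the only adult above 0 with the mutant in Cy5. With the mutant in Cy3, adult 1 was at -0.01 and 0.10, and adult 2 at -0.29 and 0.12. Proteasome genes were lower for 33 of 38 (median -0.29), and Psma1 was the member that passed. Psmd4, a ubiquitin receptor of the proteasome, was an exception at 0.72 (adjusted p = 0.0757), with its adults averaging -0.76 when the mutant was in Cy3.

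The medians of these lists per animal resembled that of the plasma proteins in 1 respect. Adult 1 again had the highest median of the 6 adults for ribosomal proteins (0.28), the respiratory chain (0.21), cholesterol synthesis (0.08) and the proteasome (-0.01). With the mutant in Cy3, adults 1 and 2 lay at -0.03 and 0.04 for ribosomal proteins, and adults 3, 4 and 6 at -0.34, -0.57 and -0.36. The embryos lay between 0.05 and 0.51. In the 9 other settings computed for these lists the median stayed below 0, from -0.53 to -0.14 for plasma proteins, from -0.41 to -0.22 for cholesterol and fatty acid synthesis, from -0.40 to -0.04 for ribosomal proteins, from -0.40 to -0.11 for the respiratory chain and from -0.27 to -0.17 for the proteasome. The smallest size for plasma proteins arose when the Cy3 arrays were turned in sign, and that for ribosomal proteins when fetal rows were named as deposited. That naming gives a gene the fetal values of another row, so its medians say nothing on the age difference of these lists. Apart from it, the smallest size for ribosomal proteins was -0.17, with the Cy3 arrays turned.

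**Figure D5:**
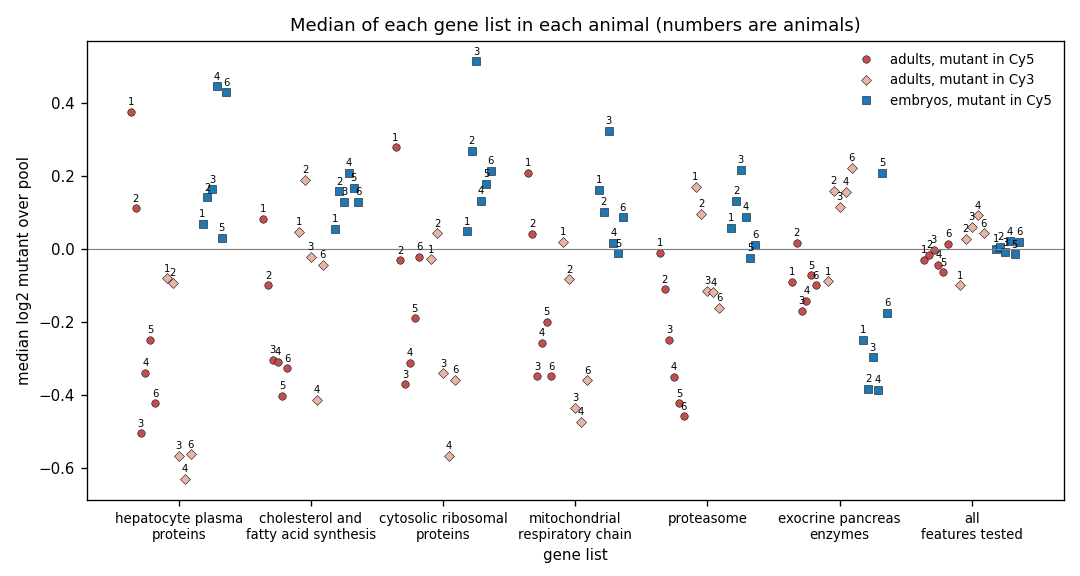
Median log2 ratio of mutant over pool of 6 gene lists and of all features tested, per animal (numbers), for adults with the mutant in Cy5 (circles), adults with the mutant in Cy3 (diamonds) and embryos (squares). Adults 1 and 2 have the highest plasma protein medians in both dye orientations, and the pancreas medians of the embryos lie below 0 in all but embryo 5.

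For the exocrine pancreas enzymes most ratios were higher in adults. Of 12 genes measured, 10 were higher in adults, with a median difference of 0.32; 0 passed, and 3 had an unadjusted p under 0.05 with adults higher against 1 lower. Ctrb1, chymotrypsinogen B, was at -2.88, -2.0 and -0.67 in embryos and at -0.45, -0.30 and -0.14 in adults. Every embryo lay below every adult, a difference of 1.55 (95% interval 0.87 to 2.23, limma adjusted p = 0.0623).

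Cpa1, carboxypeptidase A1, ran from -1.69 over -1.19 to -0.47 in embryos and from -0.92 over -0.42 to 0.39 in adults (0.85, adjusted p = 0.102). It passed with adults averaged over both dyes (1.25, adjusted p = 0.0328) and with the dye profile subtracted and adult 1 left out (1.19, adjusted p = 0.0249). Cela2a, an elastase, ran from -1.92 over -1.32 to -0.68 in embryos, and 5 of 6 adults lay between -0.18 and -0.02 while adult 6 was at -1.88 (0.90, adjusted p = 0.150). Clps, colipase, differed in the other direction by -0.39 (adjusted p = 0.160). These enzymes are made mainly by pancreatic acinar cells, and the share of pancreas in the dissected tissue was not tested. With the dye profile subtracted the median of the list was 0.34, and with fetal rows named as deposited it was -0.06.

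Acute phase proteins, which the liver secretes in inflammation, had 7 of 13 genes higher and a median of 0.25 that became -0.15 with the dye profile subtracted. Fgl1, a fibrinogen-like hepatokine, stood at 0.73 and Mt2, a metallothionein, at -0.44 (adjusted p = 0.117 and 0.135). Factors that regulate Afp other than Afp itself did not pass: Nfic, a nuclear factor I protein, was at -0.47 (adjusted p = 0.0892) and Nr2f1, the nuclear receptor COUP-TF1, at 0.32 (adjusted p = 0.150), which was -0.01 with the dye profile subtracted. Among oncofetal and imprinted genes Cdkn1c, an imprinted cell cycle inhibitor, was at 1.17 (adjusted p = 0.0711), with values in 4 of 6 embryos. Of the estrogen and steroid genes, Cyp17a1 passed, and Pgrmc1, a heme-binding membrane protein, was at -0.73 (adjusted p = 0.0846).

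No marker of blood, endothelial, stellate or bile duct cells passed in limma with all 12 animals. At an unadjusted p under 0.05, adults were higher and lower for 2 and 2 of 23 erythroid and 4 and 0 of 32 leukocyte markers. The counts were 3 and 5 of 35 endothelial or stellate and 3 and 2 of 17 bile duct or epithelial markers. Over all features the shares were 11% higher and 9.24% lower. Erythroid markers were even, with 11 of 23 higher and a median of -0.02. Car1, the red cell carbonic anhydrase, was nonetheless below the pool in every adult (-0.66, -0.47, -0.02) and above it in every embryo (0.33, 0.45, 1.38), a difference of -1.06 (adjusted p = 0.0553). With the mutant in Cy3 the adults averaged 0.21 for Car1. Bpgm, another red cell enzyme, was at 0.48 (adjusted p = 0.142). Leukocyte markers had 19 of 32 higher (median 0.08), with Ngp, a neutrophil granule protein, at 0.61 (adjusted p = 0.110).

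Endothelial and stellate markers had a median of -0.13 over 35 genes. Cdh5, the endothelial cadherin, and Fcgr2b, an Fc receptor of liver sinusoidal endothelium, were at -0.90 and -1.02 (adjusted p = 0.0722 and 0.0749). Adult 1 was the highest adult in both with the mutant in Cy5. With the mutant in Cy3, it was at -0.46 and -0.28, and adult 2 was highest for Cdh5 (0.27) and adult 3 for Fcgr2b (-0.01). With the dye profile subtracted and adult 1 left out, both passed (adjusted p = 0.0452 and 0.0144). Esam, an adhesion protein of endothelial cells, was at -0.59 (adjusted p = 0.0781), and Col4a2, a basement membrane collagen, went the other way at 0.86 (adjusted p = 0.0779), with adults averaging -0.93 when the mutant was in Cy3. Bile duct and epithelial markers had a median of 0.11, which was -0.03 with the dye profile subtracted; Krt18, a keratin of hepatocytes and duct cells, was at 0.70 (adjusted p = 0.0912). The part of cell mixture in the differences was not tested.

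In the remaining lists the medians were -0.13 for heat shock proteins and chaperones, -0.09 for translation factors, -0.09 for cell cycle genes, -0.18 for transporters, -0.03 for immune and interferon genes, 0.04 for sex-biased liver genes and -0.02 for clock genes. Bzw2, Sfxn2 and Cyp17a1 were their passing members. Values for other leading members were -1.04 for the co-chaperone Dnaja1, 0.73 for the initiation factor subunit Eif3i, -0.80 for the mitotic kinesin Kif23, 0.95 for the prostaglandin transporter Slco2a1, 0.66 for the interferon-response factor Irf9 and -0.31 for the clock-output repressor Nfil3, and none passed. Of 15 clock genes, 0 had an unadjusted p under 0.05 in limma.

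Of the named genes that did not pass with all 12 animals, 621 passed in at least 1 fit that left out an animal, 29 of them in 2 or more. The 10 in each direction that passed in most such fits, ties taken by p, are given here. Those higher in adults were Fdxacb1 (1.49), Guca2b (1.5), the ion channel subunit Kcnmb2 (1.08), the replication helicase subunit Mcm2 (0.69), the zinc transporter Slc39a3 (0.89), Flywch2 (1.13), resistin (Retn, 0.69), the histone methyltransferase Kmt5c (0.92), the myosin Myo1f (0.74) and the transcription factor Pax1 (1.09). Their adjusted p ran from 0.0514 to 0.0623. Each of the 10 averaged below 0 in the adults with the mutant in Cy3, from -1.58 (Fdxacb1) to -0.33 (Mcm2). Guca2b, the gut peptide uroguanylin, kept the largest difference with the dye profile subtracted, 1.18 (adjusted p = 0.0756), while Slc39a3 stood at 0.23.

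Those lower in adults were Car1 and Hgd (above), Gstm3 (above), Lsm12 (-0.85), the autophagy protein Vmp1 (-1.0), the kinesin Kif5b (-0.82), the exonuclease Isg20 (-0.87), the secreted ribonuclease Rnase4 (-1.14), the mRNA decay factor Zfp36l1 (-0.83) and the exon junction component Rbm8a (-0.59). Adjusted p ran from 0.0553 to 0.068. Rnase4 was above the pool in every embryo (0.81, 1.08, 1.43), and 4 of 6 adults were below it. Adult 3 alone reached 1.07, through a single probe of 2 that read 2.75. With the dye profile subtracted Rnase4 stood at -1.13 and Vmp1 at -0.93 (adjusted p = 0.0571 and 0.0721).

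The genes around Afp were examined by their order on chromosome 5, a window chosen with earlier results known. Of the 25 protein-coding genes on each side, 13 besides Afp were tested, and 13 of 13 had the lower ratio in adults, with a median difference of -0.30; Afm was the only one that passed, and 3 had an unadjusted p under 0.05. Rchy1, a ubiquitin ligase 17 genes away, was at -0.66 (adjusted p = 0.309) and Ankrd17, 2 genes away, at -0.52 (adjusted p = 0.342). Utp3 and Rufy3, 12 and 11 genes away, were at -0.10 and -0.03. The lower direction held in 10 of 13 with adults averaged over both orientations and in 11 of 13 with the dye profile subtracted (median -0.30). It also stood in 12 of 13 with fetal rows named as deposited (median -0.10), where the fetal values are those of other rows. Of all features 52.3% were lower and of all named genes 55%, and flanking sequence of a targeted allele was not tested.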

How the data were processed

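Values were used as the authors deposited them: 1 table of log2 ratios of the 2 channels, 20794 probes by 17 arrays. Image analysis, background correction and normalization are not given in the labels or headers, and the log base was inferred from the size of the values. Per the labels' protocols, total RNA was labelled indirectly with Cy3 or Cy5. Platform annotation gave 12771 probes 1 symbol (9030 genes) and 8023 none. A feature was the mean of a gene's probes or an unnamed probe, with values in at least 4 of 6 animals of each age. Fetal values of probes up to 20000 were moved by 11 rows; the remaining 794 were not named. No centring was added. A 2-group fit used limma 3.58.1 (lmFit, eBayes) in R 4.3.3 with Benjamini-Hochberg adjustment over all features and a threshold of 0.05, and was tested on simulated data. Correlations of deviations between same-numbered adults and embryos were 0.025, 0.02 and -0.009, so title numbers do not pair animals. The text names Afp, Alb and Afm, passing genes (up to 10 per direction), 20 genes next in line by fits without 1 animal, up to 4 members per list by p, and up to 5 unnamed probes. Members, lists and rules were chosen with earlier results of these data known. Rgn, Cdo1, Selenop and the neighbours of Afp were added after seeing values. Alternatives left out each animal, blocked on title number, rescaled arrays, changed filters, added the Cy3 arrays, removed the dye profile, used male embryos only and kept fetal rows as deposited.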

Additional observations from a re-analysis of the deposited data

Results flagged for a closer look

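The ages differed by limma's 2-group fit in 23 features, adult minus fetal, with n = 6 per age (5 adults for probe 11048). Adults were higher for Afp (8.29), Cyp17a1 (1.53), Raver2 (2.23), Bzw2 (0.92), Iffo1 (0.83), Luzp1 (0.83), Sfxn2 (0.98) and Mybpc2 (0.93). Lower were Afm at -1.19, Hes7 at -1.16, Psma1 at -1.15, Cnp at -0.84 and Ptbp3 at -0.77. The unnamed probes were 19614 at 5.42, 4463 at 2.01, 11048 at 1.76, 5357 at 1.48, 8576 at 1.2, 6791 at 1.19, 4213 at 0.99, 7623 at -1.06, 4277 at -1.11 and 19431 at -1.42.

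A single animal stood apart from the other 5 of its age, with a gap of over 0.625 of the group's range, in 20 of 180 groups examined. For groups not chosen by their values, chance gives about 1 in 20. Many of these genes were named by p or by fits that left out 1 animal, so that rate does not apply to them. Adult 1 was that animal for Cyp17a1 (0.15), Luzp1 (0.26), Serpina1e (0.25), Uqcrc2 (0.43), Cdh5 (-0.02), Fcgr2b (0.56) and Mrpl36 (0.14). Adult 6 was for Afp (0.34), Cela2a (-1.88) and probe 19614 (-0.90), adult 5 for Car1 (-0.02) and Ndufa10 (0.75) and adult 3 for Rnase4 (1.07). Among embryos it was embryo 6 for Raver2 (-2.75), embryo 2 for Mybpc2 (-0.52), embryo 3 for Rps7 (1.39), Scp2 (0.35) and probe 19614 (-6.59), embryo 5 for Nr2f1 (-0.04) and embryo 1 for Rgn (0.86).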

How the results depend on the processing

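Against 23 features and 13 named genes with all 12 animals, leaving out 1 animal gave 4 to 1224 features and 1 to 629 named genes, the highest without adult 1, then 78 and 40 without embryo 5. Features and named genes passing were 43 and 24 with array weights, 40 and 21 with robust eBayes, 40 and 21 without values beyond 10 in size, 9 and 6 with adults averaged over both dyes, 6 and 3 with male embryos only, and 1579 and 768 with fetal rows as deposited; 36 features passed when all 12 values were required. With the replicate block on title numbers, which do not pair animals, 10 and 5 passed, 2 of them shared. Chosen after seeing the data, turning the Cy3 arrays gave 239 and 131, subtracting the dye profile 5 and 3, and doing so without adult 1 gave 79 and 50. Centring, quantile normalization, scaling, values in 2 animals per age and single probes gave 21 to 32 features.

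With fetal rows as deposited the sign turned for Afp (-0.25, adjusted p = 0.297, no longer its own row), Ctrb1 (-6.75), Cpa1 (-0.57), Cela2a (-0.24), Acads (-0.30), Cyp2d22 (-0.45), Mt2 (0.083) and Ngp (-0.044). With adults averaged over both dyes it turned for Slc39a3 (-0.041), Nr2f1 (-0.14), Krt18 (-0.024) and Irf9 (-0.13), and with the dye profile subtracted for Nr2f1 (-0.007). For these turned signs the cause was not tested. In every other setting run per gene, Afp passed with adults higher. Each of the 12 passing named genes other than Afp lost its call in at least 1 setting. With fetal rows as deposited, 9 of the 13 passing named genes kept their call, and Afp, Hes7, Sfxn2 and Afm lost it. The fetal values there are those of other rows, so a call in that setting does not rest on a gene's own fetal values. The number of animals and the unstated signal over background limit the precision.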
